A study of Caenorhabditis elegans with 6 samples.

Results

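The genes described here are 10 nuclear genes of Caenorhabditis elegans whose products fuse, divide, move or mark mitochondria for removal: fzo-1, eat-3, drp-1, fis-1, fis-2, mff-1, mff-2, miro-1, pink-1 and pdr-1. They were chosen by gene name, and all 10 were found among the 16262 genes of the deposited table. RNA came from whole young adult worms in 6 libraries: 3 of LARP-1::APEX2 (yq637) and 3 of LARP-1::GFP (yq636), both knock-ins. Sample titles call all 6 immunoprecipitation RNA-seq, while the labels' protocols give no pull-down step. A difference in RNA level in the worm and a difference in recovery by a pull-down cannot be told apart here. Both groups were grown at 20 °C on OP50 bacteria, kept in 950 µl with biotin-aniline at 3.3 mM and 25 °C for 2 h, and then given 11 µl of 100 mM H2O2 for 2 min. APEX2 is a peroxidase that biotinylates molecules near it when given H2O2, and GFP is a fluorescent protein without that activity. LARP-1 belongs to the La-related proteins, which bind RNA. No group without a tag on LARP-1 was analysed here, so both groups carry an altered larp-1 locus, and whether a line derives from 1 edited animal is not given in the labels.

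Mitochondria form a network that is remodelled all the time by opposing events. On the outer membrane the mitofusin FZO-1 joins mitochondria, and EAT-3, the worm counterpart of OPA1, joins the inner membranes and keeps cristae in shape. The dynamin DRP-1 is recruited from the cytosol and constricts mitochondria until they divide. FIS-1, FIS-2, MFF-1 and MFF-2 are small tail-anchored proteins of the outer membrane, of families known in yeast and mammals for helping to recruit that dynamin. MIRO-1 is a GTPase of the outer membrane that links mitochondria to motors on microtubules. PINK-1 is a kinase that marks damaged mitochondria, and PDR-1, the worm parkin, is the ubiquitin ligase that acts with it in mitophagy.

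Between 3824041 and 6414569 reads per library lay on listed genes, and the 10 genes together summed to 436 to 497 CPM of those reads with APEX2 and 423 to 464 CPM with GFP. The tagged gene larp-1 averaged 2861 ± 147 normalized counts with APEX2 and 2588 ± 26.8 with GFP (SD, n = 3 each), a log2 difference of 0.14 ± 0.09 (SE) that did not pass (limma, adjusted p = 0.30). All listed markers of germ line, oocytes, muscle, intestine, neurons, hypodermis and pharynx had reads in every library, while 3 of 6 sperm markers, spe-9, spe-11 and spe-38, were at 0 in at least 1. Of 7 oocyte and early embryo markers, 6 were called higher with APEX2 and 0 lower (limma, adjusted p under 0.05). Over all tested genes 11.6% were called higher and 10.1% lower. The summed normalized counts of the 7 markers ran from 27058 to 28891 with APEX2 and from 22275 to 23368 with GFP. The seventh, pos-1, was lower in every APEX2 library, with 2503 to 2872 normalized counts against 3001 to 3422 with GFP, and did not pass (log2 difference -0.22 ± 0.10; limma, adjusted p = 0.13). Of the other 7 marker lists, germ line had 1 called higher and 2 lower of 6 tested, and body muscle 2 higher and 1 lower of 6. Intestine had 1 higher and 2 lower of 7, and hypodermis 1 higher and 0 lower of 5. Sperm, neurons and pharynx had 0 called of 3, 7 and 4 tested. The called germ line genes were glh-1 (log2 difference 0.44), pgl-1 (-1.02) and htp-3 (-0.37). In such bulk samples, a change in the number of cells of a type and a change in RNA per cell cannot be told apart. On the second principal component, with 19.5% of the variance, APEX2 replicate 1 lay at 28.3, and APEX2 replicates 2 and 3 lay at -18.4 and -17.2, so results are also given without that library where they change.

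Normalized counts of drp-1, the fission dynamin gene, and of miro-1, the transport gene, passed as higher with APEX2 than with GFP. Those of mff-2, a fission adaptor gene, passed as lower. The other 7 genes did not pass. Of all 10534 tested genes, 11.6% were called higher, 10.1% lower and 21.7% in either direction (limma, Benjamini-Hochberg adjusted p under 0.05), so 3 calls among 10 genes lie near the share of the table as a whole. Values of the groups stood apart, with no overlap, for 6 of the 10 genes, 4 of them with APEX2 higher (fzo-1, drp-1, miro-1 and pink-1) and 2 with APEX2 lower (mff-1 and mff-2). Over all tested genes such a gap was found in 37.4%, with APEX2 higher in 19.9% and lower in 17.5%. The differences of the 10 genes ran from -0.47 to 0.55 on the log2 scale, with a median of 0.11 beside 0.02 over all tested genes. Their summed normalized counts were 2090, 2259 and 2196 in the APEX2 libraries and 2016, 1915 and 1937 in the GFP libraries, which did not overlap. With libraries scaled to the same total the sums did overlap, at 436, 497 and 495 CPM with APEX2 and 464, 423 and 444 CPM with GFP. On that scale 4 of the 10 genes had no overlap (drp-1, miro-1, mff-1 and mff-2), beside 36.9% of all tested genes, while fzo-1 and pink-1 overlapped.

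**Figure D1:**
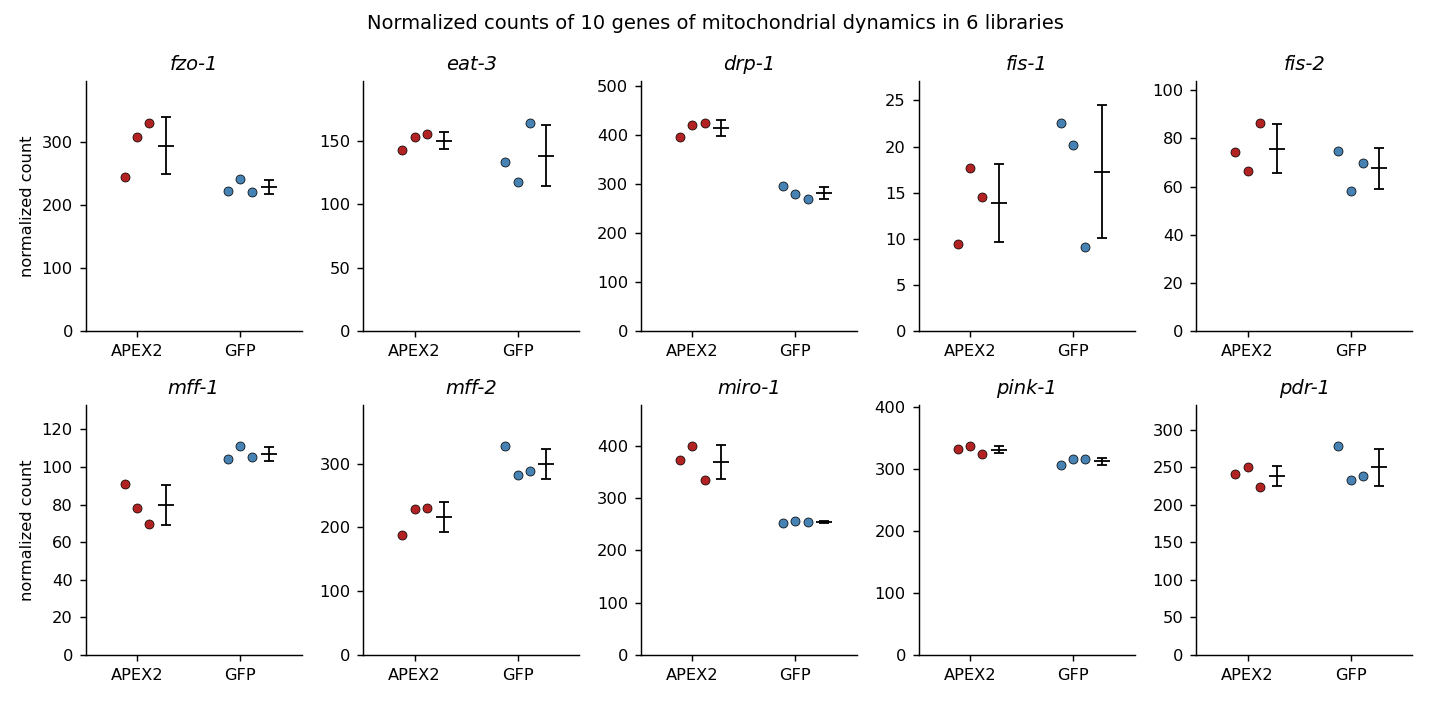
Normalized counts (vertical axes, from 0) of each of the 10 genes, with LARP-1::APEX2 libraries in red on the left and LARP-1::GFP libraries in blue on the right, replicates 1 to 3 in order, and the mean with its SD beside them (n = 3 each). The APEX2 points of drp-1 and miro-1 lie above every GFP point and those of mff-1 and mff-2 below, while fis-1 has few reads and wide error bars in both groups.

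Levels were compared between genes per length, as RPKM computed from the recovered reads, the exonic length and each library's total over listed genes. On that scale mff-2 had the highest level of the 10 in both groups, at 63.3 ± 9.29 with APEX2 and 90.8 ± 8.96 with GFP (SD, n = 3 each), and its lowest library lay above the highest of any other member. The parkin gene pdr-1 came next, at 39.4 ± 2.01 with APEX2 and 42.9 ± 4.96 with GFP, and its range over the 6 libraries lay above that of pink-1, the next in mean level, while it overlapped those of miro-1 and drp-1. At the other end stood eat-3, at 9.99 ± 0.840 with APEX2 and 9.57 ± 1.79 with GFP, and fis-1, at 5.86 ± 1.90 with APEX2 and 7.53 ± 3.12 with GFP, whose ranges overlapped each other. The range of fzo-1, at 25.4 ± 4.79 with APEX2 and 20.4 ± 0.491 with GFP, lay above that of eat-3 in full.

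Between these ends pink-1, miro-1, drp-1, mff-1, fis-2 and fzo-1 lay close together, and each neighbouring pair in the order of overall means overlapped. Their order differed between the groups. With APEX2 it was miro-1 (38.6 ± 3.20), drp-1 (36.6 ± 2.84), pink-1 (34.2 ± 1.21), fis-2 (26.1 ± 4.11), fzo-1 and mff-1 (22.4 ± 2.06). With GFP pink-1 (33.5 ± 0.663) led, then mff-1 (31.3 ± 0.338), miro-1 (27.7 ± 0.388), drp-1 (25.9 ± 1.49), fis-2 (24.2 ± 3.53) and fzo-1. Thus mff-1 ranked 8 of the 10 genes with APEX2 and 4 with GFP. With APEX2 its range overlapped those of fzo-1 and fis-2, and its own difference between the groups did not pass (limma, adjusted p = 0.094).

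**Figure D2:**
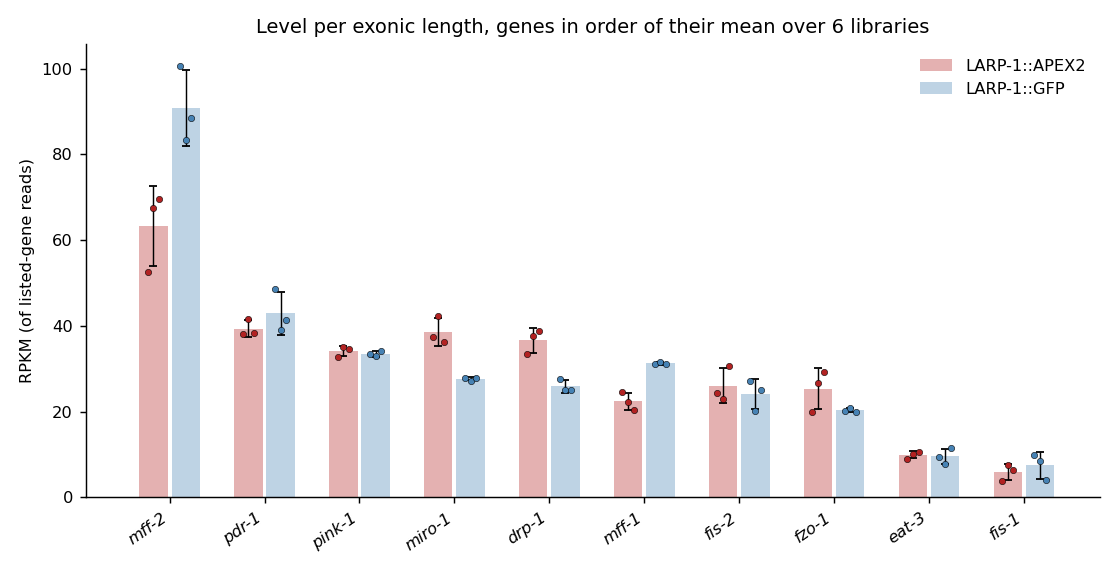
Level of each gene as RPKM over listed-gene reads (vertical axis, from 0), in order of the mean over the 6 libraries. Bars are means of the LARP-1::APEX2 libraries in red, to the left, and of the LARP-1::GFP libraries in blue (n = 3 each), with the SD and the single libraries as points. The mff-2 bars stand at 63.3 and 90.8, and the means of the genes from pink-1 to fzo-1 lie between 20.4 and 38.6.

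Of the fusion genes, fzo-1 (WBGene00001509, chromosome II, 5833328 to 5836203, minus strand, WBcel235, the assembly of ce11) had 244, 308 and 331 normalized counts in the APEX2 libraries and 223, 241 and 222 in the GFP libraries. Every APEX2 library lay above every GFP library, APEX2 replicate 1 by only a few counts. Its log2 difference was 0.35 ± 0.14 (SE; 95% interval 0.06 to 0.65), with an adjusted p of 0.083 (limma). Without APEX2 replicate 1 the difference was 0.48 and passed (limma, adjusted p = 0.0078). The inner-membrane fusion gene eat-3 (WBGene00001134, chromosome II, 9324874 to 9329665, plus strand) had 143, 153 and 156 normalized counts with APEX2 and 134, 118 and 164 with GFP. Here the APEX2 values lay within the GFP range. The eat-3 difference of 0.13 ± 0.16 did not pass (limma, adjusted p = 0.61), and its 95% interval of -0.21 to 0.47 leaves room for changes in either direction. The difference was 0.020 without GFP replicate 2 and 0.26 without GFP replicate 3.

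The gene of the fission dynamin itself, drp-1 (WBGene00001093, chromosome IV, 5538488 to 5541365, plus strand), had 395, 421 and 425 normalized counts with APEX2 and 296, 280.0 and 269.5 with GFP. The groups were far apart relative to the spread within them, with SDs of 16.3 and 13.1. The log2 difference was 0.55 ± 0.11, a 1.47-fold level with a 95% interval of 1.24 to 1.73 (limma, adjusted p = 0.0032). This rise passed without any 1 of the 6 libraries, with differences of 0.52 to 0.59 and adjusted p-values of 0.0011 to 0.028. Its size exceeded that of 78.3% of all tested genes, without regard to sign.

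Of the 4 fission adaptor genes, 0 were called higher and 1, mff-2, lower, beside 11.6% and 10.1% of all tested genes. With 4 genes these counts are a description only. The gene mff-2 (WBGene00018894, chromosome I, 5657917 to 5658712, minus strand) had 189, 229.6 and 231 normalized counts with APEX2 and 327, 282 and 289 with GFP. All APEX2 libraries lay below all GFP libraries, and APEX2 replicate 1 was the lowest. With a log2 difference of -0.47 ± 0.13, mff-2 stood at 0.722 of its level with GFP (95% interval 0.593 to 0.879; limma, adjusted p = 0.021). Without APEX2 replicate 1 the difference was smaller, at -0.37, and passed (limma, adjusted p = 0.034). The call of mff-2 did not hold when GFP replicate 1, 2 or 3 was left out. The differences were then -0.40, -0.51 and -0.49 (limma, adjusted p = 0.11, 0.051 and 0.071).

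The paralog mff-1 (WBGene00008691, chromosome X, 12985790 to 12987219, minus strand) had 90.7, 78.4 and 69.9 normalized counts with APEX2 and 104, 111 and 105 with GFP. The groups did not overlap here either, though the difference of -0.42 ± 0.17 did not pass (limma, adjusted p = 0.094; 95% interval -0.79 to -0.06). Without APEX2 replicate 1 it was -0.52 and passed (limma, adjusted p = 0.035). With that library left out, the called genes were thus drp-1, miro-1 and fzo-1 higher and mff-1 and mff-2 lower, where 12.4% of all tested genes were called higher and 11.3% lower.

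The pair mff-1 and mff-2 summed to 279, 308 and 301 normalized counts with APEX2 and 431, 393 and 394 with GFP. The log2 ratio of mff-1 to mff-2 within a library was -1.43 ± 0.34 with APEX2 and -1.48 ± 0.15 with GFP (SD, n = 3 each). It differed by 0.05, less than the spread in either group (exact two-sided permutation test, p = 0.9, where 0.1 is the smallest possible).

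Mean normalized counts of fis-1 and fis-2 were the lowest of the 10 genes in both groups. The gene fis-1 (WBGene00001424, chromosome II, 6755174 to 6755965, plus strand) had 9.43, 17.7 and 14.5 normalized counts with APEX2 and 22.6, 20.2 and 9.14 with GFP, resting on 8 to 21 reads per library with APEX2 and 8 to 23 with GFP. The APEX2 values lay within the GFP range. Its difference of -0.25 ± 0.39 (limma, adjusted p = 0.70) has a 95% interval of -1.09 to 0.59, or 0.471 to 1.51 times the GFP level. Changes of any size within those bounds are thus not excluded. The difference was near 0 without APEX2 replicate 1 (-0.0095), GFP replicate 1 (-0.017) or GFP replicate 2 (-0.095), and -0.43 without APEX2 replicate 2 and -0.63 without GFP replicate 3. The gene fis-2 (WBGene00001425, chromosome X, 8283275 to 8285219, minus strand) had 74.2, 66.3 and 86.5 normalized counts with APEX2 and 74.6, 58.2 and 69.7 with GFP. These overlapped as well, and the difference of 0.16 ± 0.19 did not pass (limma, adjusted p = 0.60; 95% interval -0.25 to 0.57). It was 0.062 without APEX2 replicate 3, 0.060 without GFP replicate 2 and 0.25 without APEX2 replicate 2. The log2 ratio of fis-1 to fis-2 was -2.40 ± 0.51 with APEX2 and -1.99 ± 0.71 with GFP (SD, n = 3 each; exact two-sided permutation test, p = 0.4, where 0.1 is the smallest possible).

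The 4 adaptor genes together had 363, 392 and 402 normalized counts with APEX2 and 528, 472 and 473 with GFP. The fusion pair of fzo-1 and eat-3 had 387, 461 and 486 with APEX2 and 356, 358 and 386 with GFP. The adaptor sum, most of which is mff-2, was lower in every APEX2 library, and the fusion sum was higher in every APEX2 library, by under 1 count between the nearest libraries. Scaled to the same total, the adaptor sums stayed apart. Since mff-1 and mff-2, which make up most of that sum, each stayed apart too, this is no separate result. The fusion sums overlapped on that scale, at 80.6, 101 and 109.6 CPM with APEX2 and 82.1, 79.1 and 88.4 CPM with GFP.

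Set against the fusion genes in the same library, the log2 ratio of drp-1 to eat-3 was 1.46, 1.45 and 1.44 with APEX2 and 1.14, 1.24 and 0.71 with GFP. All 3 APEX2 libraries had the higher ratio, and drp-1 itself was called higher. Their narrow band rests on 121, 164 and 225 reads of eat-3, so it is not read as a trait of the group. The lowest GFP ratio is that of GFP replicate 3, where eat-3 had its highest normalized count. The log2 ratio of drp-1 to fzo-1 was 0.69, 0.45 and 0.36 with APEX2 and 0.41, 0.22 and 0.28 with GFP. Those values overlapped, with the highest ratio in APEX2 replicate 1, where fzo-1 was the lowest of its group. No test is given for these ratios of genes chosen together.

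**Figure D3:**
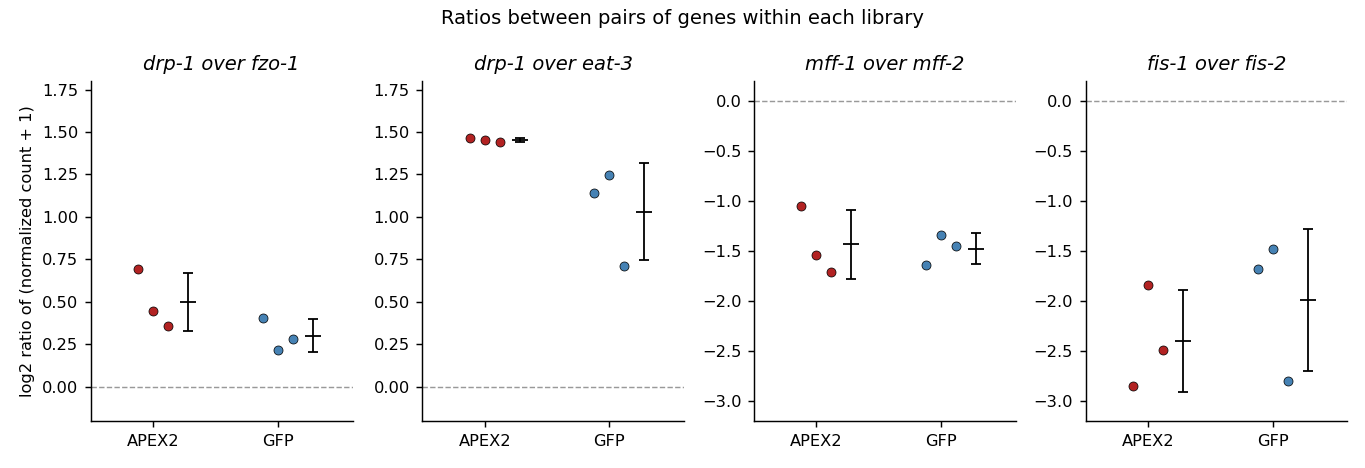
Log2 ratio of (normalized count + 1) between pairs of genes within each library (vertical axes; the dashed line at 0 marks equal values), with LARP-1::APEX2 in red on the left, LARP-1::GFP in blue on the right, and the mean with its SD (n = 3 each). The drp-1 over eat-3 ratios lie at 1.44 to 1.46 with APEX2 and 0.71 to 1.24 with GFP, and the groups overlap in the other 3 panels.

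The transport gene miro-1 (WBGene00019544, chromosome IV, 4712825 to 4715807, minus strand) had 372, 398 and 333 normalized counts with APEX2 and 251, 257 and 254 with GFP. The GFP libraries were almost alike, with an SD of 2.59, and every APEX2 library was well above them. The log2 difference was 0.53 ± 0.12, a 1.44-fold level with a 95% interval of 1.21 to 1.72 (limma, adjusted p = 0.0058). It passed without any 1 of the 6 libraries too, with differences of 0.47 to 0.60 and adjusted p-values of 0.0037 to 0.035. In the same APEX2 libraries 6 of the 7 oocyte and early embryo markers were called higher, beside 11.6% of all tested genes. The sums of the 7 were 27058 to 28891 normalized counts against 22275 to 23368 with GFP. The part of these markers in the rises of drp-1 and miro-1 was not tested.

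The mitophagy pair was not shown to differ. The kinase gene pink-1 (WBGene00017137, chromosome II, 5393293 to 5395694, minus strand) had 332, 337 and 325 normalized counts with APEX2 and 306, 316 and 316 with GFP. The groups did not overlap, but the gap was small, with a difference of 0.08 ± 0.11 (limma, adjusted p = 0.64) and a 95% interval of -0.15 to 0.32. This was the narrowest interval of the 10 genes, and its upper end is a 1.25-fold level. The parkin gene pdr-1 (WBGene00003967, chromosome III, 13771513 to 13773345, plus strand) had 242, 250.1 and 224 normalized counts with APEX2 and 278, 233 and 239 with GFP. These overlapped, with a difference of -0.06 ± 0.13 (limma, adjusted p = 0.77; 95% interval -0.34 to 0.21).

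**Figure D4:**
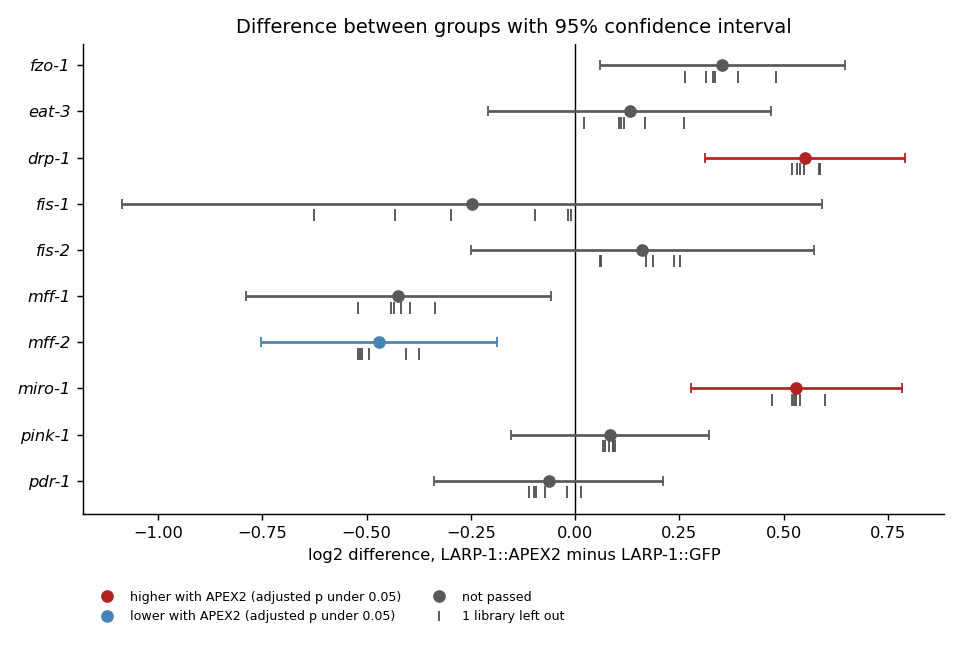
Log2 difference of each gene, LARP-1::APEX2 minus LARP-1::GFP (horizontal axis), as a point with its 95% confidence interval, and below it as short ticks the values with each of the 6 libraries left out in turn. The intervals of drp-1 (0.31 to 0.79), miro-1 (0.28 to 0.78) and mff-2 (-0.75 to -0.19) lie clear of 0 and these genes passed, and those of fzo-1 and mff-1 also lie clear of 0 without passing after adjustment.

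The members differ in length and place. Exonic sequence came to 520, 634, 748 and 773 bases for fis-1, fis-2, mff-2 and mff-1, all among the shorter genes of the table, and ran from 1320 bases for pdr-1 to 3288 for eat-3 among the others. The 10% of tested genes with the least exonic sequence had a median difference of -0.27, the next 10% had -0.06, and the longer classes of the same size lay between 0.01 and 0.08. Of the small adaptor genes, fis-1 belongs to the shortest class and fis-2, mff-1 and mff-2 to the next. Corrected for exonic length, the differences were -0.42 for mff-2 (limma, adjusted p = 0.044), -0.38 for mff-1 (0.13), -0.06 for fis-1 (0.94) and 0.27 for fis-2 (0.37), and drp-1 and miro-1 remained higher at 0.50 and 0.49 (0.0058 and 0.0092).

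Annotated exons of pdr-1 share 107 bases with mdt-29 on the same strand, and those of mff-2 share 1 base with wdr-12 on the same strand. On the opposite strand, mff-1 shares 79 exonic bases with scav-4 and fis-2 shares 27 with ksr-1. Whether counting used strand is not given in the sources used here, so reads of these shared stretches may have been counted for either gene or for none. The neighbour wdr-12 had a difference of 0.32 ± 0.14 and scav-4 one of 0.18 ± 0.26, both of opposite sign to the member each overlaps (limma, adjusted p = 0.13 and 0.67). Of the same sign as their member were mdt-29, the neighbour of pdr-1, with -0.49 ± 0.22, and ksr-1, that of fis-2, with 0.17 ± 0.23 (limma, adjusted p = 0.13 and 0.65). The part of shared reads in the differences of the members was not tested.

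Other genes of mitochondrial shape and membrane dynamics were listed for their known roles, but with earlier results of these data known. Their counts are therefore a description only. Differences were positive in all 12 that were tested of 15 listed. They were positive in 11 of the 12 with libraries scaled to the same total, with the length correction or without APEX2 replicate 1. Over all tested genes 52.2% were positive. Of these 12, 3 rose, 0 fell and 9 did not pass, with a median of 0.23, where 11.6% of all tested genes were called higher and 10.1% lower. The genes atln-1, which encodes the atlastin GTPase that fuses membranes of the endoplasmic reticulum, clu-1, the worm counterpart of the clustered-mitochondria protein CLUH, and pgam-5, which encodes a mitochondrial phosphatase, were the 3 that rose. Normalized counts of atln-1 were 759, 735 and 637 with APEX2 and 445, 493 and 479.7 with GFP, a difference of 0.58 ± 0.11 (limma, adjusted p = 0.0019). Those of clu-1 were 1931, 1798 and 1686 with APEX2 and 1404, 1401 and 1291 with GFP, with 0.40 ± 0.10 (limma, adjusted p = 0.0094), and pgam-5 had a difference of 0.39 ± 0.10 (0.014). The calls of clu-1 and pgam-5 ended without GFP replicate 3 (limma, adjusted p = 0.067 and 0.063), which left 1 gene called, and that of pgam-5 also without GFP replicate 1 (0.073). With quantile normalization clu-1 had a difference of 0.24 and did not pass (0.079).

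Of 11 tested genes of motors and their adaptors for mitochondria, 2 rose, 1 fell and 8 did not pass, with a median of 0.06, so 3 of 11 were called, near the 21.7% over all tested genes. Both that rose encode light chains of kinesin-1, the motor to which Miro and its partner TRAK couple mitochondria in animals. The gene klc-1 had 350.0, 370.5 and 401 normalized counts with APEX2 and 264, 271 and 287 with GFP, a difference of 0.45 ± 0.12 (limma, adjusted p = 0.014), and klc-2 had one of 0.54 ± 0.16 (0.027). The heavy chain gene unc-116 had -0.17 ± 0.19 and trak-1 had 0.16 ± 0.16, and neither passed (limma, adjusted p = 0.58 and 0.54). The gene mtx-2, of the outer-membrane metaxins, fell, with -0.52 ± 0.12 (limma, adjusted p = 0.0053). The other metaxin gene of the list, mtx-1, was higher in every APEX2 library, with 0.31 ± 0.12, and did not pass (limma, adjusted p = 0.070). The call of klc-1 ended without GFP replicate 1 or 2 (limma, adjusted p = 0.061 and 0.055). That of klc-2 was lost without APEX2 replicate 2 (0.12) and without each GFP library (0.13, 0.066 and 0.065). It was also lost with libraries scaled to the same total (0.051).

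Mitophagy and autophagy genes moved in both directions: of 27 tested of 29 listed, 3 rose, 6 fell and 18 did not pass, with a median of 0.04. The rises lie near the 11.6% called higher over all tested genes, and the falls stand beside 10.1% called lower. The gene ikke-1, for a kinase that acts with ALLO-1 in the removal of paternal mitochondria from worm embryos, rose most, with 971, 912 and 818 normalized counts in the APEX2 libraries and 418, 499.6 and 483 in the GFP libraries. No APEX2 library came near a GFP library. Its difference was 0.95 ± 0.11 (limma, adjusted p = 7.7e-05), while allo-1 itself had 0.04 ± 0.17 (0.89). Also higher were atg-18, of the WIPI family that binds phosphoinositides, at 0.53 ± 0.10 (limma, adjusted p = 0.0024), and epg-8, the counterpart of Atg14 of the lipid kinase complex, at 0.48 ± 0.14 (0.027).

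The 6 that fell were atg-16.2, atg-2, sqst-1, atg-9, lgg-1 and epg-3. The cargo receptor gene sqst-1, the worm p62, had 534, 551 and 567 normalized counts with APEX2 and 734, 829 and 837 with GFP, a difference of -0.54 ± 0.10 (limma, adjusted p = 0.0022). The gene lgg-1, of the Atg8 family that coats autophagosomes, had 6167, 5292 and 5430 with APEX2 and 6646, 7101 and 7965 with GFP, with -0.36 ± 0.10 (limma, adjusted p = 0.021). For atg-2, whose product transfers lipids to the growing membrane, the difference was -0.69 ± 0.14 (limma, adjusted p = 0.0031), and for atg-9, a scramblase of that membrane, -0.46 ± 0.11 (0.0076). The conjugation gene atg-16.2 had -0.71 ± 0.24 and epg-3, the counterpart of VMP1, -0.34 ± 0.10 (limma, adjusted p = 0.045 and 0.026). The mitophagy receptor genes dct-1 and fndc-1 had differences of 0.12 ± 0.12 and -0.08 ± 0.15, and the pore gene vdac-1 one of 0.39 ± 0.16 (limma, adjusted p = 0.50, 0.75 and 0.086).

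Several of these autophagy calls did not pass with 1 library fewer. Over the whole table fewer genes passed without APEX2 replicate 2 or any 1 of the GFP libraries, for example 612 higher and 550 lower without GFP replicate 3. More passed without APEX2 replicate 1 (1310 higher and 1191 lower) or APEX2 replicate 3 (1278 and 1134) than with all libraries (1219 and 1069). The call of lgg-1 ended without APEX2 replicate 2 or GFP replicate 2 or 3 (limma, highest adjusted p 0.13). Those of atg-16.2, epg-3 and epg-8 ended without APEX2 replicate 2 or any 1 of the GFP libraries (limma, highest adjusted p 0.17, 0.10 and 0.11), and for epg-3 and epg-8 also without APEX2 replicate 3 (0.062 and 0.053). In the fits that ended the calls the differences were still -0.29 to -0.37 for lgg-1, -0.30 to -0.37 for epg-3 and 0.39 to 0.50 for epg-8. Without APEX2 replicate 2 the difference of atg-16.2 was -0.46. Its call also ended with quantile normalization (adjusted p = 0.054, limma) and with DESeq2 (0.064), and that of epg-8 with libraries scaled to the same total (0.062, limma). The count of falls was 3 without APEX2 replicate 2 or GFP replicate 2 or 3, and the count of rises was 6 without APEX2 replicate 3. The calls of ikke-1, sqst-1, atg-2, atg-9 and atg-18 passed without any 1 of the 6 libraries. The oocyte markers other than pos-1 were higher in the same libraries as these rises, and their part in the differences of the 3 lists was not tested.

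**Figure D5:**
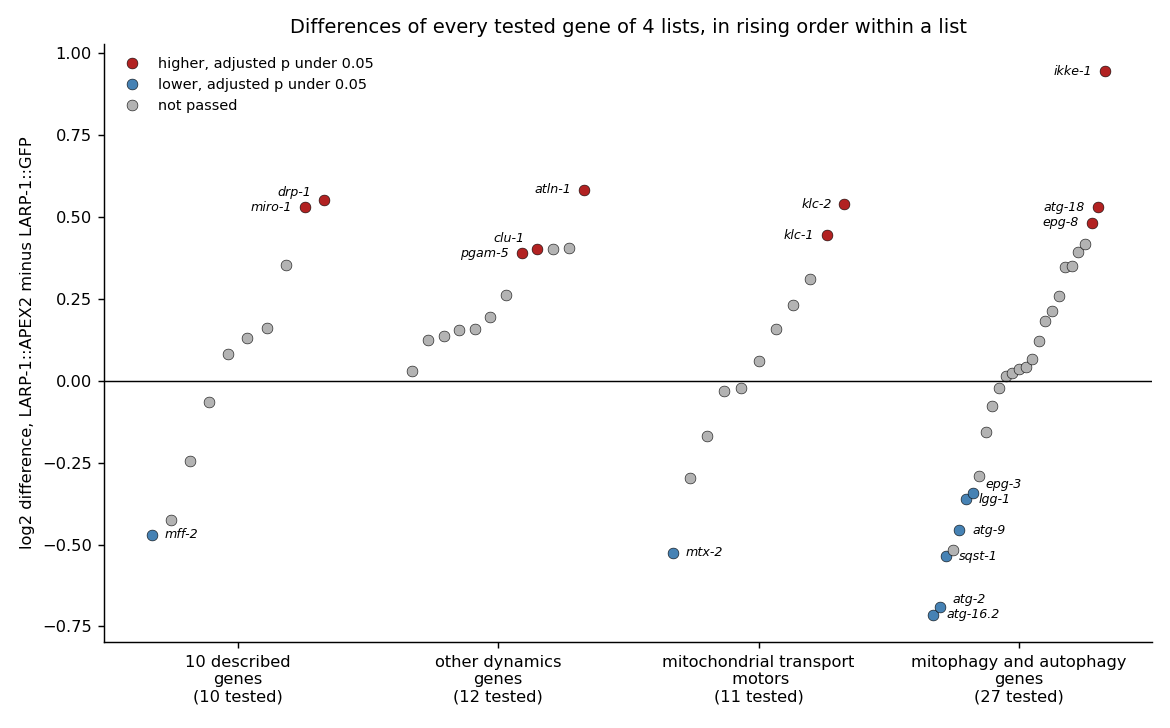
Log2 differences, LARP-1::APEX2 minus LARP-1::GFP (vertical axis), of every tested gene of the 10 described genes and of the 3 further lists, each point a gene, in rising order within its list (trak-1 stands in 2 lists). Genes called higher are red, genes called lower blue and others grey. The mitophagy and autophagy genes run from -0.71 to 0.95, with called genes at both ends, and the other dynamics genes all lie above 0 (11 of 12 with libraries scaled to the same total, with the length correction or without APEX2 replicate 1). The lists were chosen with earlier results of these data known.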

How the data were processed

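The authors deposited normalized counts, a signal per gene and library that is a read count divided by 1 size factor. Dividing each library by its smallest non-zero value gave whole reads (tolerance 0.001) for 100% of values. Per the submitters' processing notes, DESeq2, featureCounts, STAR, Bowtie and Trim Galore were used, with ce11 as the build. Settings and strand use are not given there.

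Genes with a mean value of at least 10 (10534) were compared as log2(value + 1), which understates changes of low genes, by limma 3.58.1 (R 4.3.3; trended and robust variance prior, no covariate). P-values are two-sided and Benjamini-Hochberg adjusted over all tested genes, with a threshold of 0.05. The 95% intervals are limma's and unadjusted. On recovered reads, edgeR 4.0.16 called 1121 genes higher and 1095 lower (limma 1219 and 1069), and DESeq2 1.42.0 was also run. Scripts were tested on simulated data. Named genes are the 10 members, larp-1 and the called genes of 3 further lists. The genes allo-1, dct-1, fndc-1, vdac-1, unc-116, trak-1, mtx-1 and overlapping neighbours were named after their values were seen. So were the cell type markers that are named. Members and lists were chosen with earlier results of these data known. Length correction took a smooth curve over exonic length from each library. Annotation was Ensembl WBcel235, which gave 15705 listed genes a match by symbol and 490 by sequence name. Of the list members, miro-2, miro-3 and klc-3 had no row. Replicates differed by more than sampling noise (chi-square per degree of freedom 2.87 to 12.0). Nothing in the labels says that they were separate cultures, so the error behind a p-value may be technical only. The titles speak of immunoprecipitation, while the labels' protocols give no pull-down step, and no input was analysed here.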

Additional observations from a re-analysis of the deposited data

How the results depend on the processing

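The rises of drp-1 and miro-1 passed under all 17 alternatives, with differences of 0.50 to 0.59 and 0.47 to 0.60. The fall of mff-2 passed under the 11 that kept all libraries. Over the 17 alternatives 650 of 712 values were classed as unchanged. For a gene this meant the same direction and side of the threshold, and for a count of calls a change within a fixed factor. For a median or a ratio of drp-1 it meant a move smaller than the spread within groups. For the mff-1 to mff-2 and fis-1 to fis-2 ratios it meant the same direction only. With each library left out in turn, the members called lower numbered 0 to 2 and their median was 0.040 to 0.14, the other dynamics genes called higher 1 to 4 with a median of 0.17 to 0.33, the transport genes called higher 0 to 3, the autophagy genes called higher 2 to 6 and lower 3 to 6 with a median of 0.0068 to 0.085, and the mff-1 to mff-2 log2 ratio differed by -0.15 to 0.19. The difference of pdr-1 ran from -0.11 without GFP replicate 2 to 0.015 without GFP replicate 1. With libraries scaled to the same total the median of the members was 0.051, of the autophagy genes -0.019, and 1 transport gene was called higher. Corrected for length the members' median was 0.055, and with quantile normalization that of the transport genes was -0.024. The cause was not tested. Scaling to the same total moved the calls over all genes from 1219 higher and 1069 lower to 965 and 1219, and with each library left out in turn 612 to 1310 genes were called higher and 550 to 1191 lower. Same-numbered replicates did not deviate together (correlations of -0.16, -0.08 and 0.02 for numbers 1 to 3), so the numbers were not taken as pairs. With a replicate block 984 genes were called higher and 883 lower, and of the members again 2 higher and 1 lower. The block ended the call of epg-3 (limma, adjusted p = 0.064) and of no other named gene. Depth limits fis-1 most, and other members rest on 52 to 614 reads per library.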
